A study of Mus musculus with 2 samples.

Results

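Distal EP300 peaks with a forkhead site at the summit were described in the liver of newborn mice. A peak of the optimal list, which the authors made from both replicates by the irreproducible discovery rate (IDR), was taken when its summit lay on chromosomes 1 to 19 or X, was more than 1 kb from every protein-coding transcription start site (TSS) of GENCODE M21, and had an exact TATTTAC or TGTTTAC on either strand, whole within 50 bases of the summit. Of 26844 peaks, 21237 were distal, and 1133 of these held the site and are called FOXA peaks here (5.34% of distal peaks, 95% Clopper-Pearson interval 5.04 to 5.65). Intervals cover the counting of peaks only, and peaks of the same list are not independent.

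The series holds 1 group, whole liver tissue of strain B6NCrl at postnatal day 0, with no treatment named, profiled by chromatin immunoprecipitation and sequencing (ChIP-seq) with an antibody to EP300. The group has 2 replicates. They are labelled as biological replicates 1 and 2, but their biosample and donor labels are identical. Whether they are separate animals is therefore not known, and the spread between them may be technical. No comparison between conditions was made and no test was run. Read depth is unknown because the lists hold no read counts, and the scale of the signal value, the authors' own value per peak, is not stated. Groups of peaks were compared by signal within a list, and the values of the 2 replicate lists are set side by side as a description only. In bulk tissue, more cells of a type and more EP300 per cell cannot be told apart.

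EP300 is a histone acetyltransferase that transcription factors bring to enhancers and promoters. The FOXA proteins are forkhead factors that can bind their site in compacted chromatin, and they act in liver formation and in hepatocyte gene expression with HNF4A, HNF1, ONECUT and C/EBP factors. Other forkhead factors, FOXO proteins among them, recognise near-identical letters, so a match does not show which protein was bound. The newborn liver also still holds blood-forming cells, in which GATA1, the main erythroid GATA factor, works beside TAL1 and KLF1.

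The windows of 50 bases to each side of the summit are printed for the 5 FOXA peaks of highest signal, named by the nearest gene. All are on the plus strand of GRCm38 (mm10), from RefSeq, and the capitals mark the FOXA site as it reads on that strand, so that GTAAACA and GTAAATA are sites on the minus strand. Each of the 5 also holds a GATA motif, left in lower case.
Car2 window, chr3:14879041-14879141: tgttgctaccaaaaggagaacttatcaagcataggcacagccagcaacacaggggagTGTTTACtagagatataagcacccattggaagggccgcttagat
Gnat2 window, chr3:108096808-108096908: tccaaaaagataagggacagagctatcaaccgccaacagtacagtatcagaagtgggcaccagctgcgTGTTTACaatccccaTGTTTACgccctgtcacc
Cmpk2 window, chr12:26473202-26473302: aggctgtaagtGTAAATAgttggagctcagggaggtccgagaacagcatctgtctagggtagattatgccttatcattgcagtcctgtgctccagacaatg
Gm47985 window, chr1:151096291-151096391: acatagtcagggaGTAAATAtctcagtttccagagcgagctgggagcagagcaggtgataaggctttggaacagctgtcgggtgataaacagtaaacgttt
Zbtb16 window, chr9:48723731-48723831: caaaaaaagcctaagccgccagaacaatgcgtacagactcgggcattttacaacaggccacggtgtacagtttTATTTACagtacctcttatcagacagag

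Both an HNF4A motif (CAAAGTNCA) and a C/EBP motif (TTGCNNAA) lay within 50 bases of the summit in 6 FOXA peaks (0.530%). The share in other distal peaks was 0.204%, with overlapping intervals. The 2 windows shown were chosen because they bring the FOXA, HNF4A and C/EBP motifs together, and capitals mark each match of the 3 motifs.
Gtdc1 window, chr2:44920656-44920756: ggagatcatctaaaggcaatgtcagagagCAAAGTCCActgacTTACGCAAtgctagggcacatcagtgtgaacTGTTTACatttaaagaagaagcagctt
Ireb2 window, chr9:54860670-54860770: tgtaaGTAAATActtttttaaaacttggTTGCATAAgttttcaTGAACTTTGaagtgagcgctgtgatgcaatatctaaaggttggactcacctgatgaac

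The strongest FOXA peak within 50 kb of a TSS is shown for each of the 4 genes that had any among 15 well-known liver and forkhead genes, with the FOXA site in capitals.
Cps1 window, chr1:67116741-67116841: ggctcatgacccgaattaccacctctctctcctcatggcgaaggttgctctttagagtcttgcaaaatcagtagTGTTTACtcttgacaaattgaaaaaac
Cebpa window, chr7:35090703-35090803: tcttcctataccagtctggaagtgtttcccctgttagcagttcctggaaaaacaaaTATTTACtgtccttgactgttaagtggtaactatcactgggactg
Hnf4a window, chr2:163586929-163587029: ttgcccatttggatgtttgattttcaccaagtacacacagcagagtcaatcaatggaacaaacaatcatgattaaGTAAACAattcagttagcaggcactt
Igfbp1 window, chr11:7198750-7198850: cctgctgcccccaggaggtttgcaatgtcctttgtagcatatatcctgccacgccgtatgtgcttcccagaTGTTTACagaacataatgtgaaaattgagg

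FOXA sites were gathered at the summit. Within 50 bases of the summit there were 11.6 sites per 1000 distal peaks per 20 bases, against 6.89 at more than 200 bases, a ratio of 1.69. The ratio was 1.69 in the 26844 highest peaks of replicate 1 and 1.60 in those of replicate 2, each around the replicate's own summits. The reversed motif, CATTTAT or CATTTGT, has the same base composition and had a ratio of 0.862. As a share of peaks, 5.34% had the site at the summit, and 3.16% of windows centred 500 bases to either side had it. Promoter peaks, those at most 1 kb from a TSS, held the site less often, in 161 of 5607 (2.87%, interval 2.45 to 3.34). Replicate 1 gave 5.33% of its distal peaks and replicate 2 gave 5.16%.

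**Figure D1:**
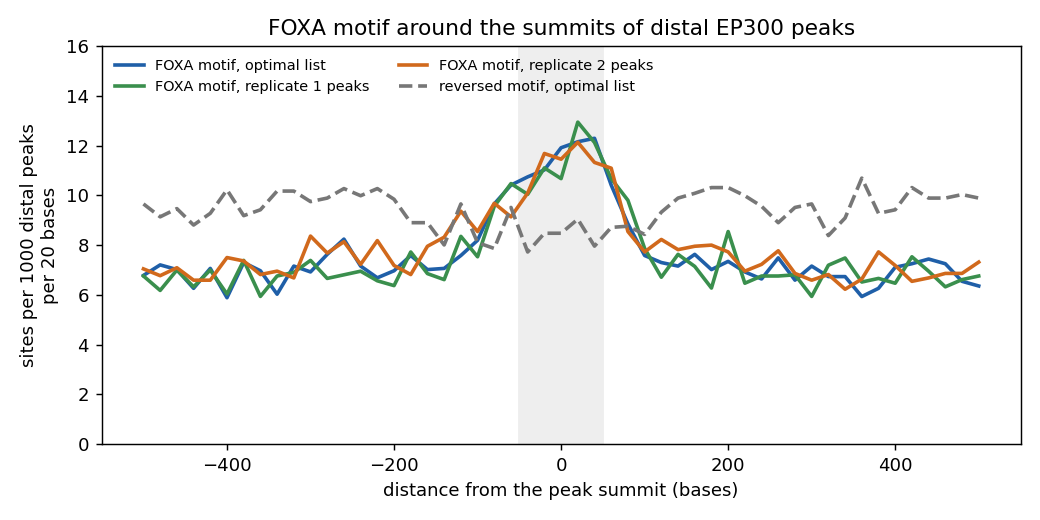
Sites per 1000 distal peaks per 20 bases (vertical axis) by distance from the summit in bases (horizontal axis), for the FOXA motif in the optimal list and in each replicate's highest peaks, and for the reversed motif (dashed); the shaded band is the 50 bases to either side. The FOXA lines rise to a common hump at the summit, with a mean of 11.6 in the band of the optimal list, while the dashed line is lower there (8.34) than farther out (9.67).

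The letters at the summit differed from those of sites in the flanks. Of the 1168 sites in FOXA peaks, 62.5% read TGTTTAC (interval 59.7 to 65.3), against 46.8% of 12778 sites 300 to 1200 bases from a distal summit (46.0 to 47.7). The remaining sites read TATTTAC. The longer word TGTTTACA made up 25.5% of summit sites and 18.1% of flank sites, while TATTTACA made up 13.1% and 23.0%. Outside the motif, the largest gaps were at the second base to either side. C stood at the second base after it in 25.6% of summit sites and 16.8% of flank sites, and T at the second base before it in 29.8% and 38.8%. The shift was general, with T less frequent in summit sites at every flanking position examined. C was more frequent at all of them but the third base after the motif (15.07% against 16.56%). Whether these gaps, or that between TGTTTAC and TATTTAC, go beyond a difference in base composition between summits and flanks was not tested. FOXA peaks with TGTTTAC had a median signal of 39.6 (n = 722), and those with TATTTAC only had 35.4 (n = 411).

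Most FOXA peaks held a lone site. In 1098 of 1133 there was 1 site and in 35 there were 2 (3.09%), and no window held 3 or more, which allows a share of up to 0.325%. Of the 35 pairs, 18 lay on the same strand, 12 pointed away from each other and 5 toward each other. A distance of 5 bases between the starts was the most frequent, in 5 pairs. The motif is 7 bases long, so the sites of these pairs overlap and share letters. The peak in an intron of Gnat2, the gene of the cone photoreceptor transducin, has 2 sites that do not overlap in its window above, both TGTTTAC on the same strand.

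The site lay a median of 23 bases from the summit of the optimal list, which the rule limits to 50. Around the summits that each replicate's own list gave, the median was 26 bases in replicate 1 (n = 1130) and 31 in replicate 2 (n = 1101), with 84.2% and 73.9% within 50 bases. In the optimal list 90.1% of peaks are 384 bases wide, and 99.99% of those have the summit at their midpoint. How precisely summits were placed was not tested. At the edges of the rule, the FOXA peak nearest to a TSS was 1018 bases from that of Igfbp1 (signal 19.3), and the promoter peak with a site farthest from a TSS was 984 bases from that of Ing5 (signal 45.2). The 64 FOXA peaks whose site ended 48 to 50 bases from the summit had a median signal of 32.4, and the 75 distal peaks whose nearest site ended 51 to 53 bases away had 45.2.

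FOXA peaks were of average strength. Their signal ran from 7.40 to 519.5 with a median of 38.0 (quartiles 26.9 and 60.2), and that of the 20104 other distal peaks had a median of 38.8 (26.6 and 66.9). In the replicates' own lists the medians were 25.9 and 13.4 for FOXA peaks, and 26.4 and 13.99 for other distal peaks. The upper quartile thus differed more than the median. Of the FOXA peaks, 864 (76.3%) had the same summit in the conservative IDR list, as did 76.3% of all distal peaks.

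The replicates ranked FOXA peaks alike only in part. Across the 1098 FOXA peaks with an overlapping peak in both replicate lists, Spearman's rho was 0.671 and Pearson's r of the log2 signal 0.759, a description across peaks that share the same 2 libraries. Replicate 1 had the higher value in all but 77, with a median log2 ratio of 0.89 and an SD of 0.71. The signal scale is not stated, so that offset has no reading as more or less EP300.

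**Figure D2:**
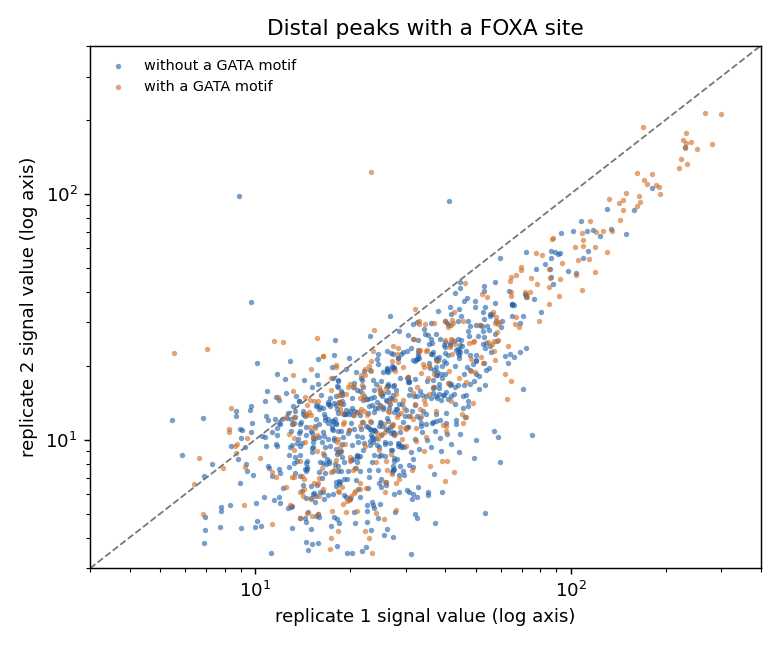
Signal value of each FOXA peak in replicate 1 (horizontal) and replicate 2 (vertical), both on log axes, for the 1098 peaks found in both lists; blue points have no GATA motif, orange points have at least 1, and the dashed line marks equal values. Strong peaks lie along a narrow band, with orange points at its upper end, and weak peaks scatter widely, 10 of all points being over 2-fold higher in replicate 2.

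GATA motifs (GATAA or GATAG after A or T) were less frequent in FOXA peaks than in other distal peaks. Within 50 bases of the summit, 363 FOXA peaks had one (32.0%, interval 29.3 to 34.8), against 47.0% of other distal peaks (46.3 to 47.7) and 46.2% of all distal peaks. The difference was -15.0 percentage points, -14 in replicate 1, -14.2 in replicate 2 and -16.7 within bins of GC content. GC content itself was lower in FOXA peaks, with a median of 44.6% against 47.5%. It was counted over the whole window with the FOXA site included. The letters of that site are mostly A or T, so the rule itself lowers this value. The GC bins use the same value. The RUNX motif TGTGGTT, that of another blood-cell factor family, was also lower, at 2.29% against 4.03%, with intervals apart. The TAL1 E-box CAGATG (9.80% against 10.6%, or 8.21% with intervals apart when matches overlapping the FOXA site were left out) and the KLF motifs (4.68% against 5.02%) had overlapping intervals, and within GC bins the KLF difference was 1.12 points, the other way.

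Signal went with the GATA motif. FOXA peaks with GATA had a median signal of 41.8 (n = 363) and those without had 36.4 (n = 770). Other distal peaks had 50.5 with GATA (n = 9449) and 32.8 without (n = 10655). So among peaks with GATA, FOXA peaks had the lower median, a log2 ratio of -0.27 (-0.28 and -0.23 in the replicates' own values), and among peaks without GATA they had the higher, with 0.15 (0.15 and 0.10). Pooled over both, the log2 ratio was -0.03.

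Distal peaks were also ordered by signal and split into 5 equal groups. In peaks without GATA the FOXA share was 7.04% in the strongest group, 8.94% in the next, then 7.57%, 5.94% and 5.10% in the weakest. In peaks with GATA it was 2.83% in the strongest and 5.13% in the weakest. Over all distal peaks the share was lowest in the strongest group, at 3.88%, and highest in the middle group, at 6.26%. The strongest group was 74.9% GATA peaks and the weakest 28.9%. Among FOXA peaks, 54.6% of the strongest group had GATA and 27.0% to 29.3% of each other group. In each replicate's own highest peaks, the share without GATA was again higher in the strongest group (7.10% and 7.5%) than in the weakest (5.78% and 5.61%). The intervals of these 2 groups overlapped in all 3 lists, while in the strongest group the intervals with and without GATA were apart in all 3.

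**Figure D3:**
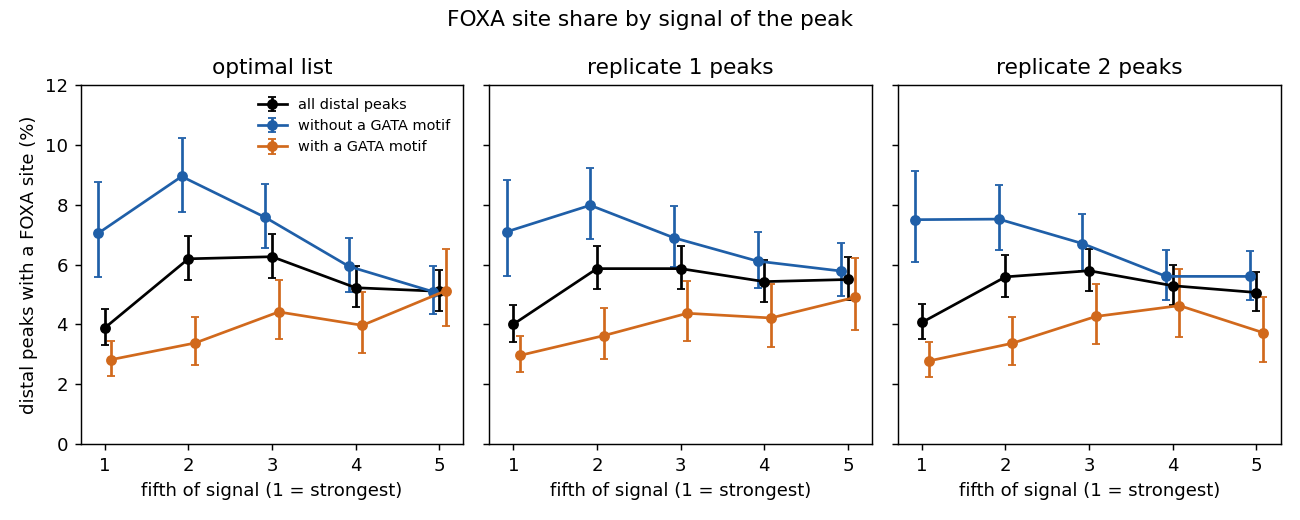
Share of distal peaks with a FOXA site (vertical axis, percent, with 95% Clopper-Pearson bars) by signal group (horizontal axis, 1 the strongest), for all distal peaks (black), those without a GATA motif (blue) and those with one (orange), in the optimal list and in each replicate's highest peaks. In all 3 panels blue lies well above orange in group 1, at 7.04% against 2.83% in the optimal list, and the lines lie closer together in group 5.

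Motifs of several hepatocyte factors were more frequent in FOXA peaks than in other distal peaks, ONECUT and NR5A2 with intervals apart, and C/EBP and HNF4A with intervals that overlapped slightly. Of 27 motifs searched on both strands beside FOXA, 8 were higher and 2 lower with intervals apart. With matches that overlapped the FOXA site left out of the FOXA peaks, which can only lower their share, 3 were higher (AGGTCA, ONECUT and NR5A2) and 5 lower (GATA, RUNX, ETS and the E-boxes CAGATG and CAGCTG). With all matches counted, CAGCTG was found in 7.15% against 8.60%, with overlapping intervals, and its difference within GC bins was 0.02 points. The 8 included the reversed FOXA motif, searched for its base composition, at 5.38% against 3.81%, a difference of 0.77 points within GC bins. Counting only direction, 11 were higher and 7 lower in the optimal list, in both replicate lists and within GC bins. The ONECUT motif (TATTGAC or TATTGAT) was found in 5.65% of FOXA peaks and 3.17% of others. Matches of AGGTCA, the core letters of many nuclear receptor sites, were found in 13.9% and 9.87%, and those of NR5A2 (CAAGGTC), a nuclear receptor of bile acid synthesis, in 47 FOXA peaks (interval 3.06 to 5.48) and in 2.30% of others. HNF1 (TTAATNATT) reached 1.32% and 0.582%, with 15 FOXA peaks, of which 12 had a match clear of the FOXA site (1.06%, interval 0.548 to 1.84, which overlaps that of others). Its difference of 0.74 points was 0.69 in replicate 1 and 0.18 in replicate 2. The difference for NR5A2 was smaller in each replicate's list, 0.66 and 0.40 points against 1.84. That for AGGTCA was also smaller there, 2.7 and 2.3 points against 4.1. CAAGGTC followed by A contains AGGTCA, so the same letters can count for both motifs.

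C/EBP motifs were found in 134 FOXA peaks (11.8%, interval 10 to 13.8), in 9.73% of other distal peaks (9.32 to 10.2) and in 9.84% of all. The difference of 2.10 points was 0.98 within GC bins, 0.28 with 25 bases to each side of the summit, 1.03 with the relaxed motif that adds TATTTAT and TGTTTAT, and 0.98 among peaks without GATA. C/EBP was found in 13.3%, 13.7% and 14.3% of FOXA peaks in the 3 strongest signal groups and in 6.91% in the weakest. HNF4A motifs were found in 33 FOXA peaks (2.91%, interval 2.01 to 4.07), in 1.86% of others and in 1.91% of all distal peaks, a difference of 1.06 points, with 1.90 in replicate 1 and 0.82 in replicate 2. HNF4A with C/EBP was found in 0.530% of FOXA peaks and 0.204% of others, with overlapping intervals.

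Some matches shared letters with the FOXA site itself. Of 46 FOXA peaks with a PAR bZIP motif (TTACGTAA, TTATGTAA, TTGCGTAA or TTGTGTAA), 23 had it overlapping the FOXA site, and without those the share was 2.12% against 2.02% in other peaks. The SOX motif (AACAAAG or AACAATG) fell from 7.94% to 5.56% when overlapping matches were left out, against 4.46% in others, and the glucocorticoid receptor motif (ACANNNTGT) from 10.2% to 7.94%, against 6.68%. For C/EBP, 1 of 134 overlapped, for HNF4A 0 of 33, and for GATA 9 of 363. The median distance between the centres of the FOXA site and the other match was 26 bases for C/EBP, 34 for HNF4A and 26.5 for GATA.

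**Figure D4:**
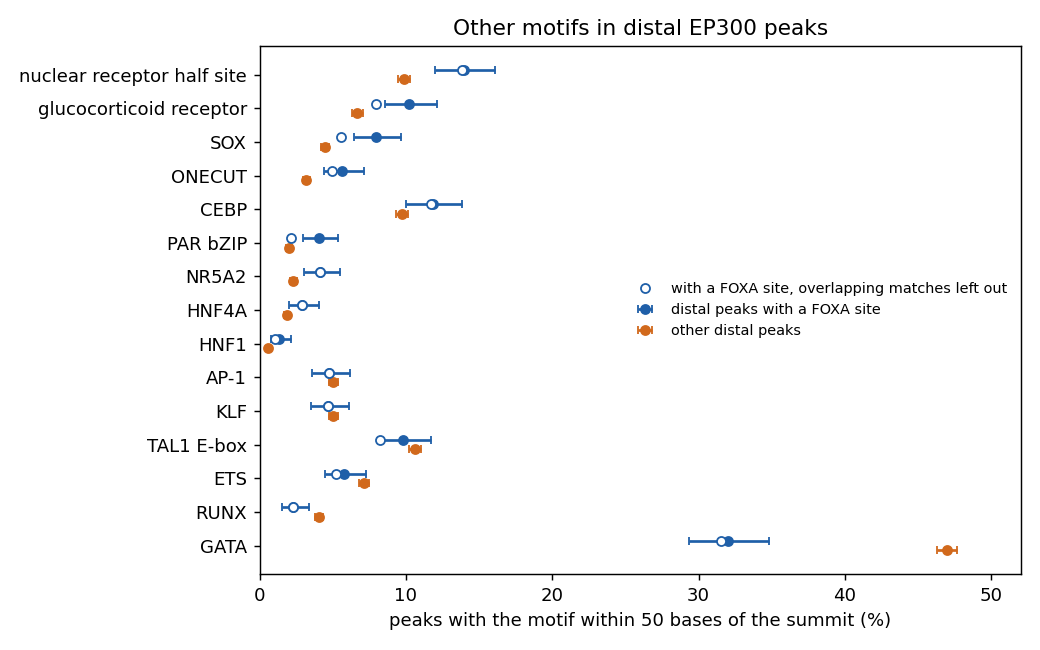
Share of peaks with each motif within 50 bases of the summit (horizontal axis, percent, 95% Clopper-Pearson bars) in FOXA peaks (blue), in FOXA peaks with overlapping matches left out (open circles) and in other distal peaks (orange). GATA has the widest gap, 32.0% against 47.0%, and the open circles of PAR bZIP, SOX and glucocorticoid receptor move toward the orange points.

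Of the FOXA peaks, 583 (51.5%) had none of the GATA, C/EBP, HNF4A, HNF1 and ONECUT motifs, against 42.9% of other distal peaks. Another 325 (28.7%) had GATA with none of C/EBP, HNF4A, HNF1 and ONECUT, against 42.6%. At least 1 of C/EBP, HNF4A, HNF1 and ONECUT was found in 225 (19.9%), against 14.5%. These shares count matches that overlap the FOXA site, and they were not compared within GC bins. The nearest match overlapped the site in 9 of 64 FOXA peaks with ONECUT and in 3 of 15 with HNF1. Within GC bins the difference was 1.7 points against 2.5 for ONECUT, and 0.98 against 2.10 for C/EBP.

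FOXA peaks differed little from other distal peaks in place, but were more often alone. By the summit, 48.1% were in an intron of a protein-coding gene, 47.9% were intergenic and 3.97% in an exon, against 49.8%, 45.6% and 4.57%. The median distance to the nearest TSS was 21.5 kb, against 18.9 kb, and 12.6% lay over 100 kb away, against 12.2%. The summit was in a repeat in 9.36%, against 9.66%. With summits within 12 kb stitched together, 37.7% of FOXA peaks were alone, against 33.7% of others with intervals apart, and 100 (8.83%) had another FOXA peak in the cluster. By chromosome the share of distal peaks with a site ran from 4.4% on chromosome 18 to 6.96% on X, with overlapping intervals.

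The 5 highest FOXA peaks were near genes of varied function, and 9 of the highest 10 had a GATA motif. The peak 7.18 kb upstream of Car2, carbonic anhydrase 2 of red cells, had a signal of 519.5, with 299.4 in replicate 1 (rank 26 of 300000) and 212.3 in replicate 2 (rank 33). The peak in Gnat2 had 483.1 and the peak 4.05 kb into Cmpk2, a mitochondrial nucleotide kinase, had 440. Gm47985 (409.3), Zbtb16 (404.7), which encodes a zinc finger repressor, Bmp2k (403.6), Padi1 (393.9), Mrvi1 (393.3), Dohh (386.4) and Bpgm (384.4) followed. Bpgm makes 2,3-bisphosphoglycerate, which lowers the oxygen affinity of haemoglobin. The peak 2.17 kb upstream of Dohh, a hypusine enzyme, was the one without GATA. Both replicates placed all 10 peaks among their 200 highest.

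The FOXA peaks were spread over many genes. They had 1022 nearest genes, of which 925 were nearest to 1 peak, 86 to 2 and 11 to 3 or more. Klf9, Nedd4l and Hlx were nearest to 4 each. Klf9, which glucocorticoids induce, had signals from 11.6 to 187.9 in 4 of the 14 distal peaks for which it was the nearest gene, and Hlx, a homeobox gene of liver outgrowth, from 7.74 to 51.6. Cebpa, which encodes C/EBPα, was nearest to 4 distal peaks, of which 3 were FOXA peaks, 24.7 to 30.9 kb away, with signals from 31.6 to 130.5. Tox, Irs2, Trib1, Man2a1, Il1r1 and Slc25a13 had 3 each. Irs2, which relays insulin signals, had 30 nearest distal peaks in all.

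FOXA peaks were found near 42 of 168 genes of the 7 hepatocyte lists (25%, interval 18.6 to 32.2), within 50 kb of a TSS, against 7.15% of all 21646 protein-coding genes. The share was similar for the erythroid list (8 of 35, 22.9%), the endothelial list (5 of 18, 27.8%) and forkhead genes (6 of 20, 30%), with overlapping intervals. Genes near the same peak are each counted, and the intervals do not allow for that. Hbb-bs, Hbb-bt and Hbb-y of the erythroid list share 1 peak of signal 12.8. Of the hepatocyte lists, Fga, Fgb and Fgg share peaks, as do F7 and F10. Hepatocyte-list genes also more often had any distal peak, 90.5% against 54.1%, and so did 34 of 35 erythroid-list genes, against 6 of 20 of the neuron list. Among the distal peaks near them, 49 of 557 were FOXA peaks (8.80%, interval 6.58 to 11.5), against 828 of 15805 near any protein-coding gene (5.24%, 4.90 to 5.60). Those of the erythroid list had 7 of 167 (4.19%, 1.70 to 8.45). Of the 49 FOXA peaks near hepatocyte-list genes, 7 had a GATA motif (14.3%), against 5 of the 7 near erythroid-list genes and 31.4% near any protein-coding gene. The lists of macrophage, stellate cell and neuron genes had no FOXA peak within 50 kb, among only 14, 12 and 14 distal peaks, which allows shares of up to 23.2%, 26.5% and 23.2%.

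**Figure D5:**
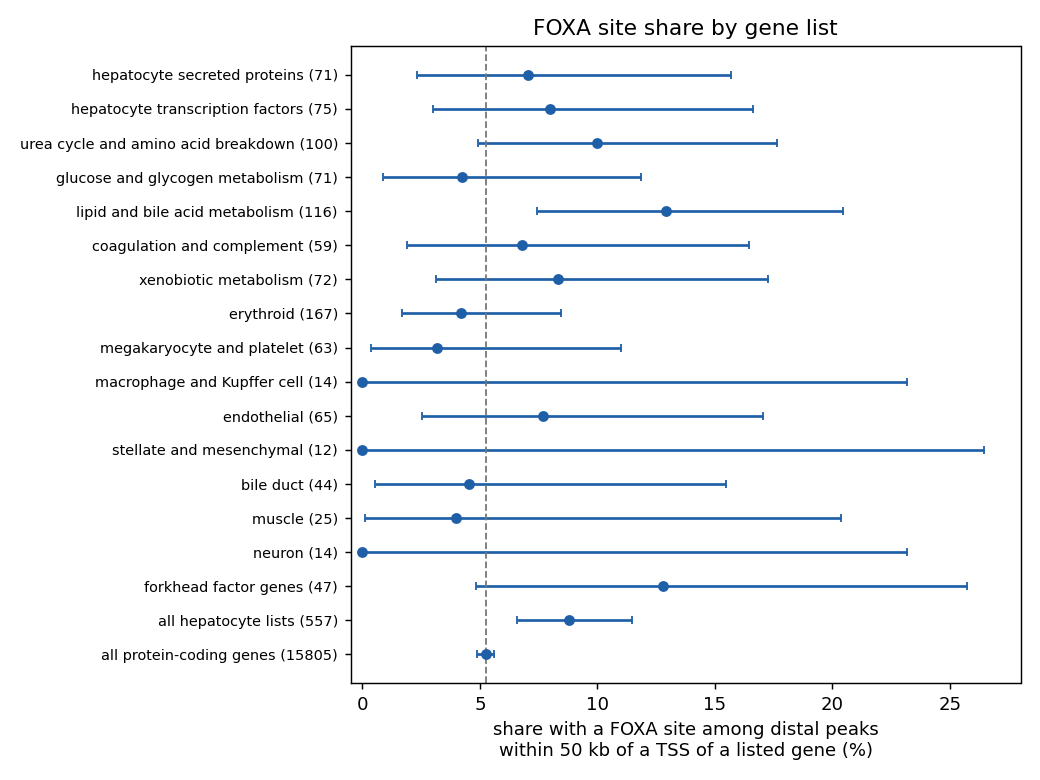
Share of FOXA peaks among the distal peaks within 50 kb of a TSS of a listed gene (horizontal axis, percent, 95% Clopper-Pearson bars), by gene list, with the number of those distal peaks in brackets; the dashed line is the share near all protein-coding genes, 5.24%. The interval of lipid and bile acid metabolism and that of all hepatocyte lists lie above the line, and all other lists cross it.

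Lipid and bile acid genes had the highest share of the hepatocyte lists, with 15 FOXA peaks among 116 distal peaks (12.9%, interval 7.42 to 20.4), near 10 of 28 genes. Among them was a peak of signal 172.7 in an exon 6.97 kb into Angptl4, an inhibitor of lipoprotein lipase, with 113.2 and 58.5 in the replicates, whose window holds an HNF4A motif. Cyp7a1 and Cyp8b1, enzymes of bile acid synthesis, had 2 FOXA peaks each, the highest of 63.3 and 49.5.

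Urea cycle and amino acid genes had 10 of 100 distal peaks, near 8 of 24 genes. That share of 10% had an interval of 4.9 to 17.6, which holds the 5.24% near any protein-coding gene. Ass1, argininosuccinate synthase, had a FOXA peak of 163.2 at 9.70 kb upstream (109.9 and 55.0 in the replicates). Cps1, the enzyme that starts the urea cycle, had 134.3 at 6.24 kb upstream (83.1 and 51.7), with the C/EBP match ttgcaaaa left of the site in its window above. Arg1, arginase, had 75.8 at 21.2 kb upstream.

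Of the secreted protein genes, 6 of 27 had a FOXA peak, the highest of each from 19.6 to 34.2. A peak 4.29 kb upstream of Fgg, a fibrinogen chain, had 34.2 and lies within 50 kb of Fga and Fgb as well, and the replicates differed widely there, 59.8 (rank 4144) against 8.13 (rank 28021). Glucose and glycogen genes had 3 of 71 distal peaks (4.2%, interval 0.88 to 11.9, against 5.24% near any protein-coding gene). These were near Gys2, liver glycogen synthase (39.0), Slc2a2, the liver glucose transporter (34.8), and Igfbp1 (19.3), a classical forkhead target. Coagulation and complement genes included Pros1 (110.1) and a peak of 94.1 within 50 kb of both F7 and F10. Xenobiotic genes included Cyp3a11 (87.5 at 1.41 kb upstream), Abcc2 (48.1) and Cyp2b10 (35.3). Among transcription factor genes, the highest were near Cebpa (130.5), Nr0b2 (90.8) and Hnf4a (71.8). Another gene was nearest to the peaks given for Nr0b2, Hnf4a, Pros1, F7 and F10.

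Genes of other cell types also had FOXA peaks nearby. Beside Car2 and Bpgm, the erythroid list had Epb41, a red cell membrane protein, with 103.3 and a GATA motif, Zfpm1, a GATA1 cofactor, with 41.4, and Ermap with 30.4. The haemoglobin genes Hbb-bs, Hbb-bt and Hbb-y shared a peak of 12.8, which is uncertain because they belong to a cluster of similar genes. Endothelial genes had 5 of 65 distal peaks (7.7%, interval 2.5 to 17, against 5.24% near any protein-coding gene). Among them were peaks near Stab2 (144.5), Lyve1 (98.5) and Clec4g (77.9), genes of liver sinusoidal endothelium. Another gene was nearest to each of these 3 peaks. Clec1b (22.9) and Vwf (18.5) were those of the megakaryocyte list. For the bile duct list they were Cldn4 (35.1) and Anxa4 (30.0), and for muscle Myog (41.7). Of the forkhead genes, 6 of 20 had 1 each, the highest Foxo3 (74.1), Foxj2 (61.3) and Foxk1 (60.1). For Clec1b, Cldn4, Anxa4, Myog, Foxj2 and Foxk1, too, another gene was nearest to the peak given. A cell type cannot be assigned to a peak from its nearest gene, and whether other cells contributed to these peaks was not tested.

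Of the 15 well-known genes, 11 had no FOXA peak within 50 kb and 4 did, against 7.15% of all protein-coding genes. Summed over the genes, a peak near several being counted for each, 7 of 69 distal peaks were FOXA peaks. The share was 5.24% of distal peaks near any protein-coding gene, each counted once. Alb, serum albumin, had 7 distal peaks within 50 kb with signals from 12.6 to 94.8, and 0 of them had a FOXA site, also with 100 bases to each side and with the relaxed motif. Its nearest FOXA peak lay 107.6 kb away (signal 21.1). Afp, alpha-fetoprotein, had 0 of 4, Tat, tyrosine aminotransferase, 0 of 4, Ttr 0 of 1, G6pc 0 of 5 and Foxa3 0 of 2. Pck1, of gluconeogenesis, had 0 of 6 and Apoa1 0 of 8, with 1 relaxed match each. Foxa1 and Foxa2 had no distal peak within 50 kb. Igfbp1 had 1 of 11, Cps1 2 of 6, Hnf4a 1 of 7 and Cebpa 3 of 6. At their promoters, 0 of 12 peaks held the site, against 2.87% of all promoter peaks. These sequences show only that the exact letters are not in these windows.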

How the data were processed

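EP300 ChIP-seq peak lists on mm10 were used. Per the descriptions deposited with the files, peaks were called per replicate (300000 each) and on both replicates together, against a control alignment, and IDR lists were made from these. Aligner, caller and IDR threshold: not given in the sources used here. The deposited signal value of each peak is the authors' own, and its scale is not stated. In the deposited replicate lists another column is −log10 q. In the pooled and IDR lists that column, like the IDR score, was treated as the authors' score. Neither was used in a result.

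Of 26883 optimal peaks, 26844 lay on chromosomes 1 to 19 and X, and 0 ended outside the GRCm38 chromosome. TSSs were those of protein-coding transcripts of GENCODE M21. Motifs were exact matches on both strands, and a motif overlapping another was counted for each. Python 3.11.15, NumPy 2.4.6, pandas 2.3.3 and SciPy 1.17.1 were used. A replicate's value is that of its overlapping peak (at least 1 base) with the nearest summit, and its own list was cut to its highest 26844. Of 349 listed gene symbols, 3 had no protein-coding match. The search and the nearest TSS were tested on simulated data.

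Peaks named were the 10 highest, the 3 genes with the highest FOXA peak of each list, 15 genes named whatever their value, peaks with HNF4A and C/EBP, and the 10 genes nearest to most FOXA peaks. Other genes named with a value were chosen after their values were seen. The members, lists and motifs were chosen with earlier results of these data known. Alternatives changed the list, window, motif, distance, TSS set, flank and GC weighting. The series held 0 columns of samples from other series. Some items under these rules are not reported here.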

Additional observations from a re-analysis of the deposited data

How the results depend on the processing

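The alternatives gave 95 values, of which 43 moved by less than the SD between the replicates' own values, 49 moved by more and 3 changed sign; that SD rests on only 2 lists. The FOXA share of distal peaks was 5.20% in the strongest 50% of peaks, 2.65% with 25 and 9.74% with 100 bases to each side, 3.40% with TGTTTAC only and 11.2% with the relaxed motif; by replicate it ran from 5.16% to 5.33%. The share at the summit divided by that in windows 500 bases away, 1.69, was 1.52 with 100 bases, 2.17 with TGTTTAC only and 1.24 with the relaxed motif, and 1.59 to 1.74 by replicate. The log2 ratio of median signal was -0.0494 in the conservative list, -0.13 in the strongest 50% and -0.0434 with the TSSs of all genes, and -0.0413 to -0.0226 by replicate, in each replicate's own highest peaks. With the values of replicates 1 and 2 at the peaks of the optimal list it was -0.026 and -0.0634. The ratio in the optimal list changed sign with TGTTTAC only (0.0341). Splitting by GATA was chosen after seeing the data and gave -0.27 with and 0.15 without the motif. The FOXA share in the strongest minus the weakest signal group, -1.22 points, was -1.77 in the conservative list, -2.37 in the strongest 50%, -0.45 with 25 bases and with TGTTTAC only, -1.58 with the relaxed motif, and, with the 5 groups formed anew within each class, -2.04 with GATA and 3.33 without, and -1.50 to -0.9998 by replicate. The C/EBP difference was 1.71 in the conservative list, 3.26 in the strongest 50%, 0.28 with 25 bases, 1.57 with TGTTTAC only, 1.03 with the relaxed motif, 0.98 within GC bins, 1.43 with GATA and 0.98 without, and 1.83 to 2.32 by replicate. The GATA difference was -17.3 in the conservative list, -23.3 in the strongest 50%, -12.9 with 25 and -9.48 with 100 bases, -14.4 with TGTTTAC only, -14.5 beyond 5 kb, -15.8 with all TSSs and -16.7 within GC bins, and -14.2 to -14 by replicate. It was -1.54 with the relaxed motif, whose added words TATTTAT and TGTTTAT, where C and then A or T follow, overlap a GATA motif on the other strand. The HNF4A difference was 0.13 with GATA, and 0.82 to 1.90 by replicate. The share of hepatocyte-list genes was 13.7% in the strongest 50%, 15.5% with 25 and 37.5% with 100 bases, 18.4% with TGTTTAC only, 32.7% with the relaxed motif, 16.7% beyond 5 kb, 23.8% with all TSSs, 11.3% within 10 kb and 17.3% by the nearest TSS, and 24.4% to 25.6% by replicate. The cause of these changes was not tested, save that fewer or more sites are counted where the window or motif changes. No paired analysis was possible because there is 1 group. Unknown read depth limits every absence: a site or peak not listed here may lie under the threshold of the list.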

Other observations

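The following values were looked up after the data had been seen. Of the FOXA peaks found in both replicate lists, those within 50 kb of a hepatocyte-list gene had a median log2 ratio of replicate 1 to replicate 2 of 0.98 (SD 0.74, n = 48), and all FOXA peaks had 0.89 (SD 0.71, n = 1098). In the strongest of the 5 signal groups the medians were close, 0.93 (SD 0.30, n = 10) and 0.82 (SD 0.36, n = 165). Other distal peaks near the same genes had 0.87 there (n = 95). In the second strongest group the medians were 1.25 (SD 0.40, n = 12) and 0.95 (SD 0.61, n = 263), and in the middle group 1.78 (SD 0.69, n = 8) and 1.05 (SD 0.72, n = 263). Other distal peaks near the same genes had 0.97 in both the second strongest and the middle group (n = 121 and 103). The peak near Fgg is among those with the widest gap, 59.8 against 8.13, and the peak near Cyp2b10 had 32.6 against 4.79. The difference was not tested, and in the 2 weakest groups it ran the other way, 0.73 (n = 8) against 0.87 (n = 217) and 0.53 (n = 10) against 0.86 (n = 190).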
